A study of Mus musculus with 11 samples.

Results

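The comparison described here is that of DN2 thymocytes of Arpp21-/- mice with DN2 thymocytes of WT mice, and it rests on 5 of the 11 libraries of the series. These are the 3 libraries labelled DN2 WT and the 2 labelled DN2 knockout, chosen by the labels of stage and genotype alone. The 6 libraries of the following stage, 3 DN3 WT and 3 DN3 Arpp21-/-, did not enter the main DN2 comparison. They served to look up genes and gene lists described in DN2, for a test within DN3 and for fits of all 11 libraries. DN2 thymocytes are early CD4-CD8- cells that still express Kit and CD44, have gained CD25 and are committing to the T lineage under Notch signals, whereas DN3 thymocytes have lost CD44 and rearrange the T cell receptor β locus. Arpp21 is an RNA-binding protein with an R3H domain that is found in brain and in immature thymocytes, and its transcript also hosts a microRNA gene in an intron. All mice are labelled C57BL/6J, and the knockout was made by electroporating C57BL/6N embryos with Cas9 and a pair of guides placed in introns 4 and 5 of Arpp21, so the change is carried in the germline. Over the whole study mice were of both sexes and were matched for sex and age. For these libraries the sex of the mice and their age at the sort are not stated. Whether a library came from a single mouse is not stated either. CD4+ and CD8+ cells had been removed with antibodies and complement before DN2 cells were sorted, and RNA was amplified as full-length cDNA from low input. P values in this text measure the spread between these libraries, which may be technical.

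The targeted gene was examined first. The exon that lies between introns 4 and 5 in transcript Arpp21-229 is a coding exon at chr9:112179028-112179172 of GRCm38 on the minus strand, and its length divided by 3 leaves a remainder of 1. Intron numbers differ between annotated transcripts, and the guides were not placed on the genome here, so calling it the targeted exon rests on the numbering of this transcript. It is shown because the guides were placed in introns of these numbers, and no part is capitalized:

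Arpp21-229 exon 5: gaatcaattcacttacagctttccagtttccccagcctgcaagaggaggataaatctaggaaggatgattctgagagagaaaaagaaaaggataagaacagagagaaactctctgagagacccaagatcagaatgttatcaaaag

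Estimated counts were given per transcript, and 16 annotated Arpp21 transcripts hold this exon while 15 do not. In counts per 1e6 counts (CPM, scaled between libraries by the TMM method), the 16 transcripts with the exon summed to 150.0, 102 and 107 in WT replicates 1, 2 and 3 and to 46.9 and 14.3 in Arpp21-/- replicates 1 and 2. Both Arpp21-/- libraries lay below every WT library, with a difference of means of -89.1 CPM (119.7 ± 26.4 in WT, SD, n = 3, and 30.6 ± 23.04 in Arpp21-/-, SD, n = 2). The exact two-sided permutation test gave p = 0.2, which is the smallest p that 3 against 2 libraries allow. As a share of all Arpp21 counts, which does not depend on library scaling, transcripts with the exon held 86.5%, 86.1% and 83.4% in WT and 57.2% and 53.1% in Arpp21-/- libraries. The groups thus did not overlap in the share either. Counts are apportioned over whole transcripts, so counts on a transcript with the exon can come from its other exons. Transcripts without the exon summed to 23.5, 16.5 and 21.3 CPM in WT and to 35.1 and 12.7 CPM in Arpp21-/- libraries, which overlapped. Over all transcripts Arpp21 had 173, 118 and 129 CPM in WT against 82.0 and 27.0 CPM in Arpp21-/- libraries.

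**Figure D1:**
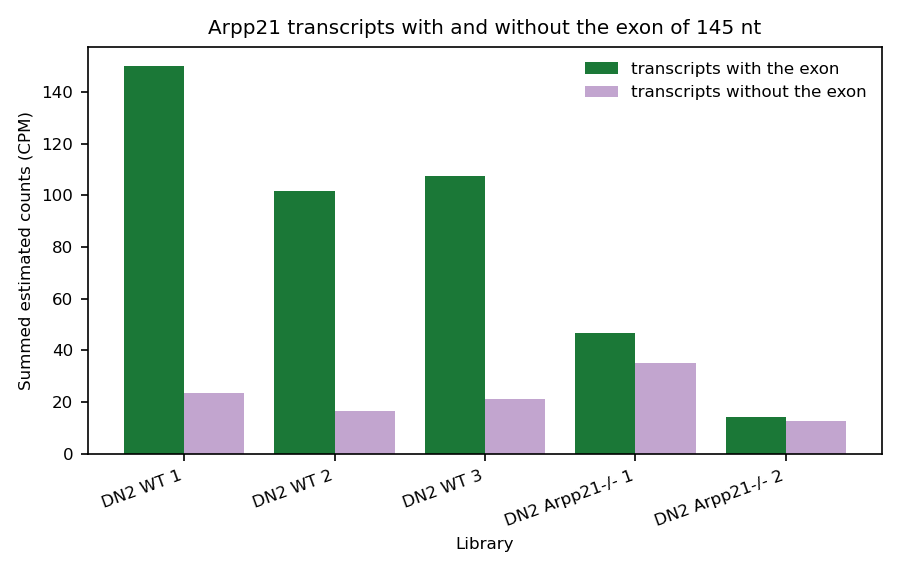
Summed estimated counts (CPM, vertical axis from 0) of Arpp21 transcripts with this exon (green) and without it (violet) in each of the 5 DN2 libraries (horizontal axis). The green bars stand between 102 and 150.0 CPM in WT and at 46.9 and 14.3 CPM in Arpp21-/- libraries.

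The libraries held between 21501831 and 25040253 estimated counts, except Arpp21-/- replicate 2 with 63109504. That library stood apart from the other 4. Across 12705 genes, none of them an independent replicate, its Pearson's r with them was 0.780 to 0.822 in log2 CPM, while Arpp21-/- replicate 1 reached 0.976 to 0.979 with the WT libraries and the WT libraries 0.961 to 0.969 with each other. Its TMM factor was 0.634 against 1.09 to 1.14. Relative to the mean of the WT libraries, its genes with transcripts near 0.5 kb were higher by 1.70 on the log2 scale and those near 8 kb were lower (-1.99), with 1.45 at 1 kb, 0.36 at 2 kb and -1.25 at 4 kb. For Arpp21-/- replicate 1 the same trend lay between -0.18 and 0.05 at these 5 lengths. A gene was therefore described only where both Arpp21-/- libraries lay on one side of all 3 WT libraries, on CPM and again after the trend over transcript length had been taken off each library (here "on both scales"). A count of 0 allows up to 3 counts, or 0.0758 to 0.129 CPM in these libraries, a limit for counting error alone.

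**Figure D2:**
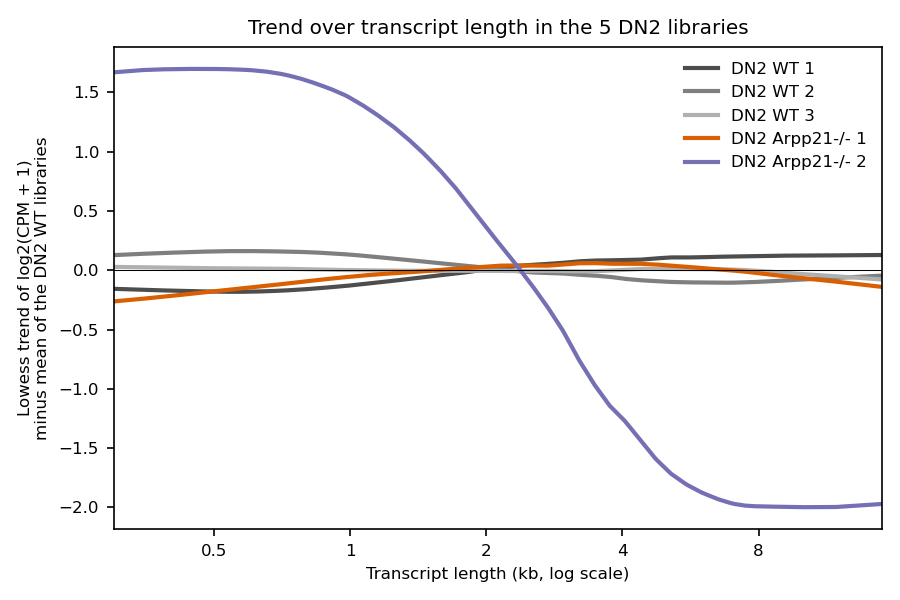
Smoothed difference of log2(CPM + 1) from the mean of the DN2 WT libraries (vertical axis) against transcript length (horizontal axis, log scale) for each of the 5 DN2 libraries. Arpp21-/- replicate 2 runs from 1.70 at 0.5 kb to -1.99 at 8 kb, while the other 4 lines stay within 0.18 of 0 at the lengths given in the text.

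DN2 identity was checked on 7 markers. Kit, the receptor for stem cell factor, had 467, 422 and 483 CPM in WT against 522 and 63.0 CPM in Arpp21-/- libraries. Il2ra, which encodes CD25, had 1582, 981 and 1008 CPM in WT against 1101 and 136 CPM in Arpp21-/- libraries. Arpp21-/- replicate 1 lay within or above the WT range for both, and in replicate 2 both were several-fold lower. Cd44 overlapped, with 62.5 to 103 CPM in WT against 74.8 and 52.5 CPM in Arpp21-/- libraries. Il7r was also low in replicate 2, at 16.4 CPM against 101.3 to 148 CPM in WT. Cd24a and Mpzl2 went the other way in replicate 2. Cd24a had 322 to 388 CPM in WT against 339 and 739 CPM in Arpp21-/- libraries. Mpzl2 had 0.797 to 29.8 CPM in WT against 14.8 and 38.1 CPM in Arpp21-/- libraries. Of the 7 markers only Thy1, a surface glycoprotein of T cells, did not overlap on both scales (38.8, 37.9 and 36.6 CPM in WT, 34.6 and 20.04 CPM in Arpp21-/-). That is 14.3% of the list, beside 5.38% of all genes tested that were lower. Of markers of mature T cells, Cd4 and Cd8a reached at most 0.408 and 1.48 CPM. Of B cell markers Pax5 was at 0 in all 5 libraries and Cd79b had 36.3 to 60.1 CPM. Of natural killer cell markers Ncr1 was at 0, and Eomes and Tbx21 reached at most 0.0412 and 0.0429 CPM. Klrb1c had 2.75 CPM in WT replicate 3 and 0 in the other libraries. The Y-linked genes Ddx3y and Eif2s3y reached at most 0.0742 CPM and Uty 0.480 CPM, while Kdm5d had 1.04 to 2.39 CPM.

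No gene passed an adjusted p of 0.05 among the 12705 genes tested (0.0%; edgeR, quasi-likelihood, Benjamini-Hochberg adjusted, 3 libraries against 2), and the lowest adjusted p was 0.804. An unadjusted p under 0.05 was reached by 287 genes (2.26%), and DESeq2 called 0 genes with 828 at an unadjusted p under 0.05. The median SD of log2 CPM over genes was 0.28 within WT and 0.81 within Arpp21-/- libraries. Without Arpp21-/- replicate 1 edgeR called 6317 genes, a fit that takes the spread of replicate 2 to be that of WT, and without replicate 2 it called 0, with 169 genes at an unadjusted p under 0.05. As a description without a test, both Arpp21-/- libraries lay below all WT libraries for 1073 genes (8.45%) and above them for 946 (7.45%), together 2019 (15.9%). On both scales 684 genes were lower (5.38%) and 657 higher (5.17%). Median transcript length was 2592 nt over all genes tested, 3383 nt in the lower and 1986 nt in the higher genes on CPM, and 2880 and 2218 nt in those on both scales, so the length trend was reduced in the narrower sets and was still visible in them. Replicate 1 by itself lay below all WT libraries for 18.3% and above them for 17.5% of genes.

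Of the protein-coding genes with a mean of at least 5 CPM, 492 were lower and 485 higher on both scales. They were ranked by the gap between the nearest Arpp21-/- and WT libraries in log2(CPM + 1), taking the smaller of the gap on CPM and the gap after length adjustment, and the 15 widest gaps in each direction are given here. Because these genes were taken for their separation in the same libraries, their fold changes are a description, and none passed the adjusted test. The ranking has no natural edge. Zfp369 was the last gene inside it on the lower side with a gap of 0.67 and Irf7 the next outside it with 0.63, and on the higher side Accs had 0.46 and Slc41a3 0.45.

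The widest lower gap was that of H2-Q6, a class Ib MHC gene of the Qa region (chr17:35424850-35430055). It had 112, 104 and 115 CPM in WT against 35.0 and 27.9 CPM in Arpp21-/- libraries, which is -1.81 ± 0.43 (SE) on the log2 scale, with a ratio of 2.97 between the nearest libraries. Both Arpp21-/- libraries were low, and leaving out the one with the length trend gave -1.63. H2-Q6 shares reads with near-identical neighbours. H2-Q7 had 221, 243 and 266 CPM in WT against 132 and 445 CPM in Arpp21-/- libraries, and the 8 H2-Q genes together had 352, 366 and 399 CPM in WT against 176 and 487 CPM in Arpp21-/- libraries. How far the low H2-Q6 count reflects the way reads were divided among them is uncertain. H2-Q4, another member, had 10.9, 10.2 and 8.22 CPM in WT against 4.67 and 4.30 CPM in Arpp21-/- libraries.

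Next came a group of metabolic, trafficking and receptor genes. Ap3m2, a subunit of the AP-3 complex that sorts cargo to lysosomes, had 11.6, 12.9 and 11.9 CPM in WT against 5.34 and 0.784 CPM in Arpp21-/- libraries. Kmo, an enzyme of tryptophan breakdown through kynurenine, had 9.73, 13.7 and 8.37 CPM in WT against 2.82 and 2.93 CPM in Arpp21-/- libraries. In Kmo both Arpp21-/- libraries gave nearly the same value, in Ap3m2 replicate 2 was far lower than replicate 1. Ptgir, the receptor for prostacyclin, had 18.8, 17.2 and 15.9 CPM in WT against 8.05 and 3.87 CPM in Arpp21-/- libraries. Il18rap, the accessory chain of the interleukin-18 receptor, had 7.50, 9.45 and 14.7 CPM in WT against 2.41 and 0.859 CPM in Arpp21-/- libraries, the widest ratio of the 15 (3.11). For 5 of the 15 genes the nearest libraries were at least 2-fold apart.

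Among regulators of RNA and transcription, Upf2, a core factor of nonsense-mediated decay, had 27.9, 24.3 and 22.2 CPM in WT against 13.3 and 1.29 CPM in Arpp21-/- libraries. Cdk8, the kinase of the Mediator complex, had 6.47, 6.44 and 9.34 CPM in WT against 3.64 and 2.68 CPM in Arpp21-/- libraries. Both lay below WT, and Upf2 has a transcript of 5145 nt, a length at which replicate 2 was low in general. The other genes of the lower 15 were Itih5, Osbp (an oxysterol-binding protein), Wdr76, Rsad2 (the antiviral protein viperin), Sertad2, Aldh1l1 (a folate enzyme) and Zfp369. Over the 15 the log2 fold changes ran from -2.69 to -1.12 and the ratio of nearest libraries from 1.62 to 3.11 with a median of 1.82. In TPM, which divides counts by effective length within each library, the groups did not overlap for any of the 15. That unit does not take off a length trend that differs between libraries. Over all genes tested 1396 were below and 460 above WT in TPM, against 1073 and 946 on CPM. Of the 15 genes 2 share exons with another annotated gene, which matters because the kit does not mark the strand.

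On the higher side Trib2, a Tribbles pseudokinase that acts as a scaffold for protein breakdown, stood first (chr12:15791727-15816922). It had 5.15, 3.35 and 5.07 CPM in WT against 20.5 and 25.8 CPM in Arpp21-/- libraries, or 2.35 ± 0.50 (SE) on the log2 scale. Its nearest libraries differed by a ratio of 3.97, the widest of the 30 genes. Its transcript is 4071 nt long, a length at which replicate 2 was low in general. Aqp9, a channel for water and glycerol, had 6.06, 6.31 and 5.00 CPM in WT against 12.7 and 19.2 CPM in Arpp21-/- libraries. Tspan32, a tetraspanin of blood cells, had 22.1, 29.0 and 31.9 CPM in WT against 47.6 and 207 CPM in Arpp21-/- libraries. Here the size rests on replicate 2, and the exons overlap those of Tspan32os.

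Crem, a transcription factor that binds cyclic AMP response elements, had 6.92, 6.53 and 7.79 CPM in WT against 11.5 and 24.1 CPM in Arpp21-/- libraries. The groups did not overlap, and replicate 2 was the higher of the pair. The deubiquitinase Usp46 lay closer, with 10.4, 9.83 and 7.71 CPM in WT against 15.5 and 17.6 CPM in Arpp21-/- libraries. Other genes of the higher 15 were Fam185a, Fdxacb1, Tulp4, Slc45a3, Sccpdh, Sbspon, Fhl4 and Accs. Ratios of the nearest libraries ran from 1.41 to 3.97 with a median of 1.503. In TPM, where 460 genes lay above WT and 1396 below, the groups did not overlap for 9 of the 15. Of the 15, 7 share exons with another annotated gene.

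**Figure D3:**
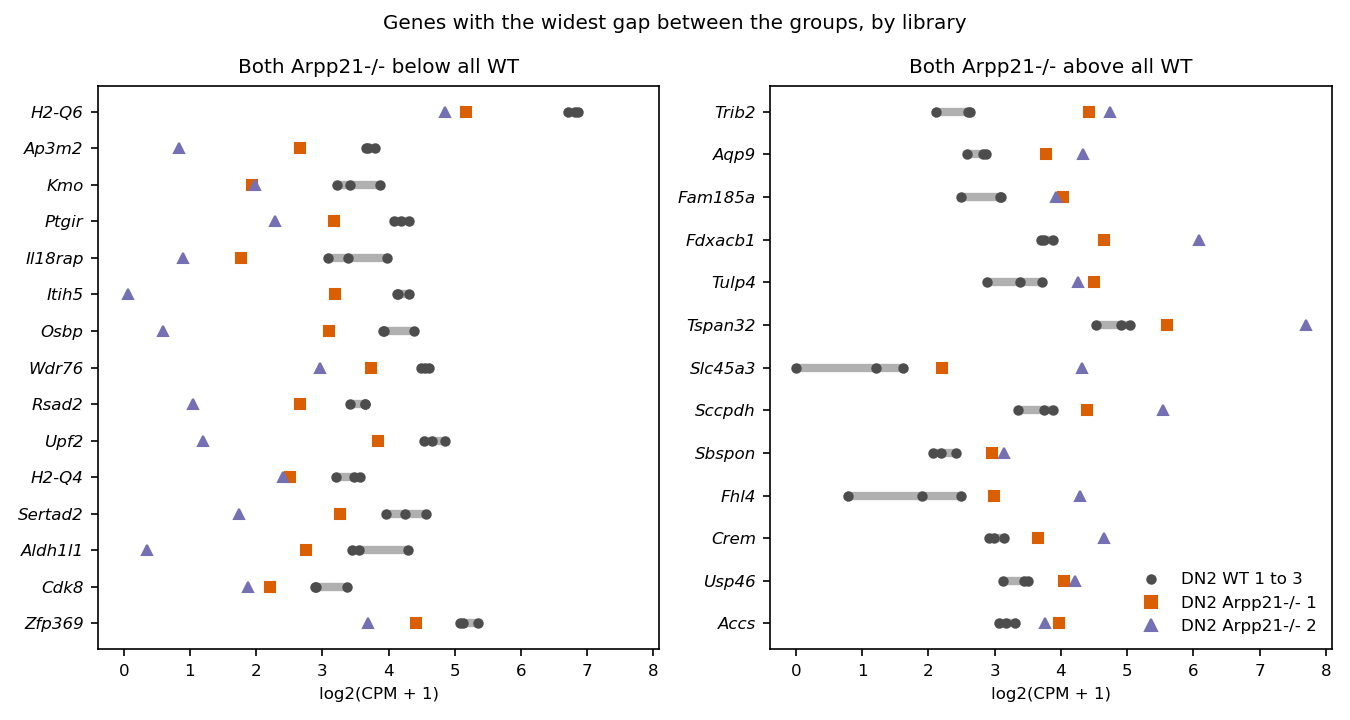
Level of the 15 genes with the widest lower gap (left) and 13 of the 15 with the widest higher gap (right) in log2(CPM + 1) (horizontal axis) for each DN2 library, with grey points and a grey bar for the 3 WT libraries, an orange square for Arpp21-/- replicate 1 and a violet triangle for replicate 2. H2-Q6 and Trib2, at the top, have ratios of 2.97 and 3.97 between the nearest libraries, and in many genes the triangle lies farther out than the square.

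Of the gene lists, that of interferon response genes had the most members below WT. Type I and type II interferons induce these genes through STAT and IRF factors, and thymocytes hold a low tonic level of them. All 32 members of the list were tested, and 8 lay below WT on both scales (25%, beside 5.38% of all genes tested), while none lay above. The median log2 fold change of the list was -0.35 against -0.05 over all genes, and no member had an unadjusted p under 0.05. Replicate 1 was then set against the WT libraries without replicate 2. There 15 of the 32 were lower and 1 higher (46.9% and 3.12%, beside 18.3% and 17.5% of all genes). Of the 32, 26 had a log2 fold change below 0 there, beside 6388 of 12705 over all genes. With both Arpp21-/- libraries it was 19 of the 32, beside 6576 of 12705. The summed level of the list was 1294 to 1518 CPM in WT, 1262 CPM in replicate 1 and 2311 CPM in replicate 2. The Arpp21-/- libraries thus lay on opposite sides of WT in the sum. On CPM with both libraries 1 member, Ifi47, lay above WT.

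Irf7, the transcription factor that amplifies type I interferon, had 19.9, 26.1 and 19.2 CPM in WT against 12.0 and 7.30 CPM in Arpp21-/- libraries. Ifit1, an inhibitor of viral RNA translation, had 11.3, 12.4 and 7.17 CPM in WT, 5.79 CPM in Arpp21-/- replicate 1 and 0 in replicate 2. Oasl2, of the oligoadenylate synthetase family, had 24.1, 19.8 and 20.97 CPM in WT, 13.7 CPM in replicate 1 and 0 in replicate 2. In all 3 genes replicate 1 was below WT by a margin, with ratios of 1.60, 1.24 and 1.45 between nearest libraries. The guanylate-binding GTPase Gbp2 had 31.8, 50.5 and 25.2 CPM in WT against 23.7 and 2.83 CPM in Arpp21-/- libraries, and the GTPase Igtp had 66.7, 66.5 and 66.5 CPM in WT against 55.8 and 39.9 CPM in Arpp21-/- libraries. Dhx58, Isg20 and Parp14 completed the 8, with nearest ratios of 1.09, 1.07 and 1.12. Rsad2, an interferon-induced gene that is not on the list and was named by its gap, had 9.65, 11.6 and 11.5 CPM in WT against 5.30 and 1.06 CPM in Arpp21-/- libraries.

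Other members split between the Arpp21-/- libraries. Isg15, a ubiquitin-like modifier, had 17.9, 21.4 and 16.7 CPM in WT against 10.6 and 35.4 CPM in Arpp21-/- libraries, so replicate 1 was low and replicate 2 high. After the length trend was taken off, both libraries were below WT for Isg15, Rtp4 and Ifitm3 as well. Irf9, which carries the interferon signal to DNA, overlapped, with 49.8, 79.3 and 64.8 CPM in WT against 51.6 and 54.3 CPM in Arpp21-/- libraries.

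Interferon-induced promoters often hold a repeat of GAAA spaced by a pair of bases, the core of the element that IRF and STAT complexes read. GAAANNGAAA was searched on both strands in windows of 300 bases from 250 before to 50 after each start in RefSeq (GRCm38.p6), and 1079 of 27025 genes (3.99%) held it. Of the list, 24 genes were matched and 14 held it (58.3%), among them 3 of the 6 matched lower genes (50%) and 11 of the 18 others (61.1%). The share was thus not higher in the genes that were lower in Arpp21-/- libraries. The windows of Irf7, Oasl2 and Isg20 held no match, Dhx58 and Parp14 were not matched to a promoter, and the windows of the 3 lower genes that did hold one are shown with that of Rsad2. Capitals mark each match of the repeat, read on either strand, and each sequence ends before the annotated start:

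Ifit1 chr19:34640755-34640843 plus strand: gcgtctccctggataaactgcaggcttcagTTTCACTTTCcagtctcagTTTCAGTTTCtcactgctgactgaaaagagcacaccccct

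Gbp2 chr3:142620574-142620643 plus strand: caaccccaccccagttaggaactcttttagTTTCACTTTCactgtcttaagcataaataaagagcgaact

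Igtp chr11:58199492-58199555 plus strand: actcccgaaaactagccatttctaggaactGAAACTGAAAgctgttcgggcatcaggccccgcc

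Rsad2 chr12:26456533-26456602 minus strand: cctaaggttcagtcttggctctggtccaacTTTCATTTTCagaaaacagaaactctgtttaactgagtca

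The 8 lower interferon genes were taken from the list by their DN2 values. The list itself was chosen with earlier results of these data known. In DN3, 5 of the 8 were again below all WT libraries in all 3 Arpp21-/- libraries. These were Irf7, Ifit1, Oasl2, Dhx58 and Isg20. Over the whole list 15 of 32 were lower (46.9%) and 1 higher in DN3, where 5.37% of the genes tested in DN2 were lower and 5.19% higher. Without DN3 Arpp21-/- replicate 3, whose TMM factor was 0.797 against 1.02 to 1.07, 21 of the 32 were lower and 2 higher (65.6% lower, beside 10.9% and 12.1% of all genes in the 2 directions). Irf7 had 18.8, 23.8 and 16.3 CPM in DN3 WT against 9.62, 6.68 and 8.03 CPM in DN3 Arpp21-/- libraries, or -1.27 ± 0.26 (SE) on the log2 scale, with an adjusted p of 0.924 in edgeR and 0.00790 in DESeq2. For Oasl2 the DN3 difference was -1.81 ± 0.46 (SE) on the log2 scale, with an adjusted p of 0.935 in edgeR and 0.0487 in DESeq2. The call in DN3 therefore depended on the tool.

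**Figure D4:**
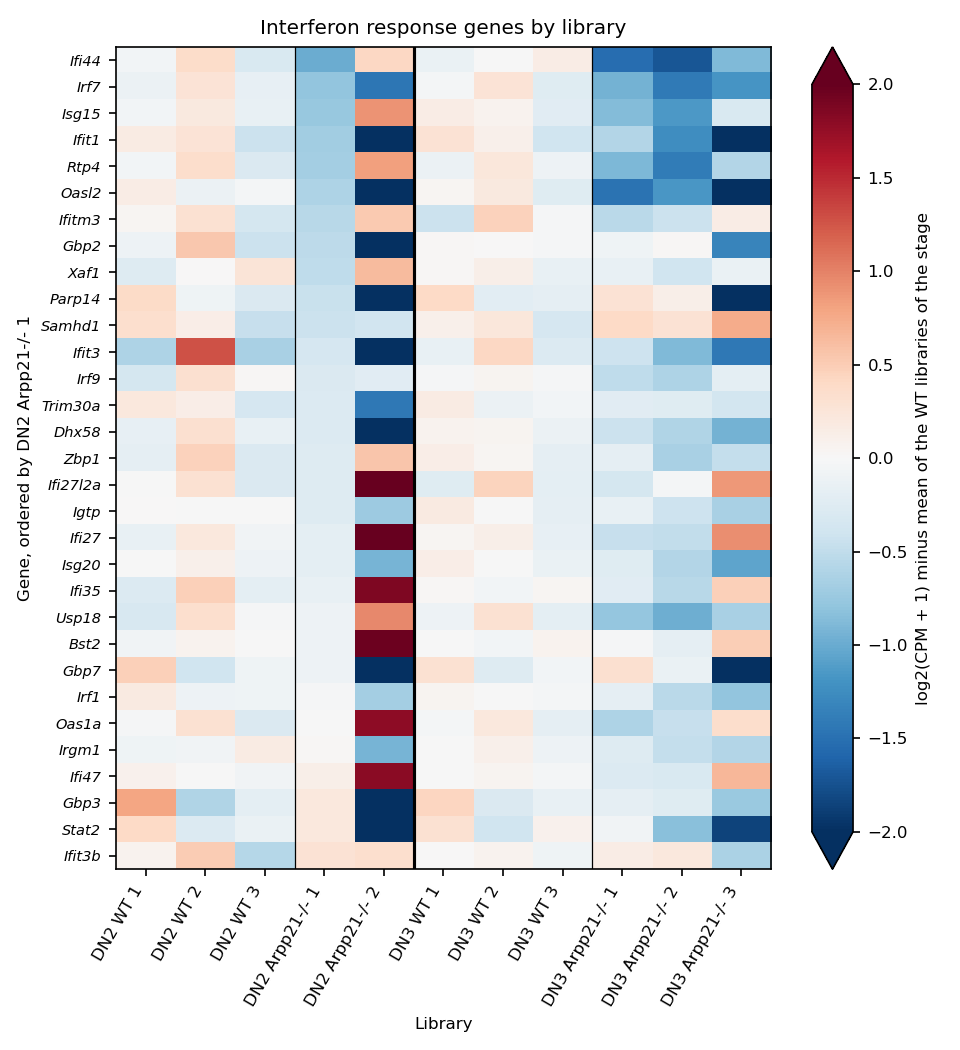
Each of 31 of the 32 interferon response genes (rows, ordered by DN2 Arpp21-/- replicate 1) in each of the 11 libraries (columns), coloured by log2(CPM + 1) minus the mean of the WT libraries of the same stage, with the scale capped at 2 in either direction. In DN2 Arpp21-/- replicate 1, 15 genes lie below all WT libraries and 1 above, replicate 2 holds both extremes, and in DN3 15 genes are lower in all 3 Arpp21-/- libraries.

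MHC class I genes and the proteins that load them with peptide overlap with this programme. Of 26 tested, 3 were lower and none higher on both scales (11.5%, beside 5.38% of all genes), namely H2-Q6, H2-Q4 and Tap2, a subunit of the peptide transporter (401, 384 and 372 CPM in WT, 354 and 240.0 CPM in Arpp21-/-). In replicate 1 by itself 13 were lower and 3 higher (50% and 11.5%, beside 18.3% and 17.5% of all genes). B2m, the light chain shared by all class I molecules, had 1744, 1978 and 1949 CPM in WT against 1558 and 2086 CPM in Arpp21-/- libraries, and H2-K1 had 824, 955 and 871 CPM in WT against 794 and 1078 CPM in Arpp21-/- libraries. Both overlapped on CPM and were below WT in both libraries after length adjustment. The median log2 fold change of the list was 0.07, and -0.11 without replicate 2.

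Lists of the T lineage programme gave fewer genes. Of 11 genes of the Notch pathway, which drives commitment at this stage, none was lower or higher on both scales, and the median log2 fold change was -0.47 and 0.11 without replicate 2. Notch1 had 375, 312 and 405 CPM in WT against 412 and 33.9 CPM in Arpp21-/- libraries. Of 16 transcription factors of T lineage commitment 2 were lower on both scales (12.5%, beside 5.38% of all genes). These were Ikzf1, which encodes Ikaros (168, 181 and 172 CPM in WT, 157 and 25.3 CPM in Arpp21-/-), and Ets2 (21.02, 24.7 and 21.3 CPM in WT, 16.5 and 3.64 CPM in Arpp21-/-). Bcl11b, the factor that seals commitment, overlapped, with 138, 177 and 343 CPM in WT against 249 and 22.1 CPM in Arpp21-/- libraries. In all 6 E protein and Id genes the groups overlapped on CPM.

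Progenitor factors, which are switched off as thymocytes commit, were lower in 4 of 16 (25%, beside 5.38% of all genes). In replicate 1 by itself 4 were lower and 2 higher (25% and 12.5%, beside 18.3% and 17.5% of all genes). Mef2c had 30.6, 31.2 and 32.8 CPM in WT against 24.2 and 6.72 CPM in Arpp21-/- libraries. Gfi1b, a transcriptional repressor, had 20.1, 22.1 and 18.2 CPM in WT against 13.2 and 1.21 CPM in Arpp21-/- libraries. Erg had 32.8, 22.9 and 28.0 CPM in WT against 17.8 and 1.14 CPM in Arpp21-/- libraries. Hhex, the homeobox factor, completed the 4 with 30.5, 33.8 and 39.3 CPM in WT against 28.6 and 26.5 CPM in Arpp21-/- libraries. In these 4 genes replicate 1 was lower by ratios of 1.07 to 1.38 between nearest libraries. Spi1, which encodes PU.1, overlapped, with 44.8, 35.9 and 40.3 CPM in WT against 42.1 and 40.4 CPM in Arpp21-/- libraries, and the median of the list was -0.34 and -0.01 without replicate 2.

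Of 13 genes of V(D)J recombination and of the pre-T cell receptor 1 was higher on both scales (7.69%, beside 5.17% of all genes). This was the kinase gene Lck, with 1118, 1060 and 1070 CPM in WT against 1198 and 2186 CPM in Arpp21-/- libraries. Rag1, the recombinase gene, had 13.8, 7.77 and 6.30 CPM in WT against 4.34 and 1.29 CPM in Arpp21-/- libraries, without overlap on CPM and with overlap after length adjustment. In DN3, where it was far more abundant, Rag1 had 925, 910.0 and 1025 CPM in WT against 429, 352 and 255 CPM in Arpp21-/- libraries (adjusted p of 0.623 in edgeR and 4.2e-05 in DESeq2). Its partner Rag2 had 59.8, 34.5 and 45.3 CPM in WT against 41.3 and 42.8 CPM in Arpp21-/- libraries, and Dntt, the terminal transferase, had 1511 to 1644 CPM in WT against 1638 and 1614 CPM in Arpp21-/- libraries. Both overlapped.

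Of 30 cytokine receptor genes 2 were lower on both scales (6.67%, beside 5.38% of all genes). Il1r1, a receptor for interleukin-1, had 16.2, 14.1 and 13.4 CPM in WT against 6.83 and 2.58 CPM in Arpp21-/- libraries, a ratio of 1.96 between nearest libraries. In DN3 it was again lower in all 3 Arpp21-/- libraries, at 0.267, 0 and 0.0872 CPM against 0.792 to 1.40 CPM in WT. Csf1r, the receptor of macrophage colony-stimulating factor, had 3.92, 2.96 and 1.30 CPM in WT against 0.890 and 0.0505 CPM in Arpp21-/- libraries. The interleukin-7 receptor gene Il7r overlapped, with 101.3 to 148 CPM in WT against 161 and 16.4 CPM in Arpp21-/- libraries. Of 19 chemokine and migration receptors 2 were lower (10.5%, beside 5.38% of all genes). These were the integrin genes Itga4 and Itgb2, with nearest ratios of 1.08 and 1.16.

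In the Bcl2 family, which balances survival and death of thymocytes, 2 of 14 were lower and 1 higher on both scales (14.3% and 7.14%, beside 5.38% and 5.17% of all genes). Bcl2 itself, the survival factor, had 210.1, 204 and 237 CPM in WT against 138 and 22.6 CPM in Arpp21-/- libraries, or -1.43 ± 0.77 (SE) on the log2 scale and -0.63 without replicate 2. Both libraries were below WT, and the transcript of 6382 nt is of a length at which replicate 2 was low in general. In DN3 Bcl2 had 163, 159 and 165 CPM in WT against 122, 70.0 and 61.6 CPM in Arpp21-/- libraries, or -0.94 ± 0.28 (SE) on the log2 scale, with an adjusted p of 0.935 in edgeR and 0.329 in DESeq2. Bad, an antagonist of Bcl2, had 24.4, 27.3 and 28.8 CPM in WT against 33.5 and 119 CPM in Arpp21-/- libraries, and it was higher in DN3 as well. Bak1, a pore former of apoptosis, was low throughout and lower in Arpp21-/- libraries (1.74 to 2.53 against 1.45 and 1.26 CPM), while Mcl1 and Bcl2l11 overlapped.

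Of 38 genes of the cell cycle and of DNA replication 3 were lower on both scales (Ccnd2, Cdkn1a and Plk1), which is 7.89% beside 5.38% of all genes. In replicate 1 by itself 15 were lower and 1 higher (39.5% and 2.63%, beside 18.3% and 17.5%). Cdkn1a, the inhibitor p21, had 46.2, 40.1 and 40.2 CPM in WT against 27.1 and 28.7 CPM in Arpp21-/- libraries. Of 30 genes of mRNA decay and of the R3H family 3 were lower (10.0%, beside the same 5.38%). Arpp21, the targeted gene, is counted among the 3, so this share is partly given by the design. The others were the Arpp21 paralogue R3hdm1 and Rc3h1, which encodes Roquin-1. R3hdm1 had 72.7, 64.3 and 61.8 CPM in WT against 57.3 and 11.3 CPM in Arpp21-/- libraries. Rc3h1 had 35.0, 39.5 and 43.1 CPM in WT against 25.7 and 5.79 CPM in Arpp21-/- libraries. The paralogues R3hdm2 and R3hdm4 overlapped. Of 23 glycolysis genes only Gapdh was lower (4.35%, beside 5.38% of all genes), with a ratio of 1.03 between nearest libraries.

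All 13 mitochondrially encoded genes were below WT in replicate 1 (100%, beside 18.3% of all genes). Of them 1, mt-Nd6, was lower on both scales (7.69%, beside 5.38%). The summed level of the 13 was 4948 to 6341 CPM in WT, 3576 CPM in replicate 1 and 25286 CPM in replicate 2. The libraries of the same genotype thus lay on opposite sides of WT. The 12 histone genes, whose transcripts mostly lack a poly-A tail, summed to 542 to 1030 CPM in WT, 577 CPM in replicate 1, inside the WT range, and 4373 CPM in replicate 2, and none was outside WT on both scales. Among 14 immediate early and heat shock genes, which respond to cell handling, Fos, Hspa1a and Hspa1b were higher and Hsp90aa1 lower on both scales. These are 21.4% and 7.14% of the list, beside 5.17% and 5.38% of all genes. Hspa1b had 0.495, 1.03 and 0.181 CPM in WT against 2.26 and 12.1 CPM in Arpp21-/- libraries. Fos had 0.124, 0.0429 and 0 CPM in WT against 0.668 and 1.79 CPM in Arpp21-/- libraries. With at most 3 counts in a WT library, Fos was tested only because of its level in the Arpp21-/- libraries and could only be counted as higher. The part of cell handling in other results was not tested.

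Genes of other cell types were examined because a sort can carry a few such cells, and in bulk RNA more cells of a type and more RNA per cell cannot be told apart. The erythroid list had the highest share, with 4 of 6 tested genes above WT on both scales (66.7%, beside 5.17% of all genes). In replicate 1 by itself 5 of 6 were above, Alas2 included (83.3%, beside 17.5% of all genes). Hbb-bs, a β-globin gene, had 26.4, 15.8 and 37.2 CPM in WT against 58.4 and 162 CPM in Arpp21-/- libraries. Hba-a1 and Hba-a2, near-identical α-globin genes whose reads cannot be divided with certainty, and Alas2, an enzyme of haem synthesis, were higher too, Alas2 with at most 0.0859 CPM in WT against 0.853 and 2.93 CPM in Arpp21-/- libraries. Hbb-bt went the other way in replicate 1, with 406, 395 and 300 CPM in WT against 199 and 1162 CPM in Arpp21-/- libraries, so the summed level of the list was 399 to 481 CPM in WT, 359 CPM in replicate 1 and 1497 CPM in replicate 2. Alas2 had at most 2 counts in a WT library and was tested only because of its level in the Arpp21-/- libraries. It could therefore only be counted as higher, which leaves 3 of 5 genes on both scales. The part of erythroid RNA in the other results was not tested.

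Of 11 myeloid genes tested 1 was lower (Csf1r) and 1 higher (Cst3), which is 9.09% each way beside 5.38% and 5.17% of all genes. Cst3 had 108, 144 and 147 CPM in WT against 148 and 669 CPM in Arpp21-/- libraries. The summed myeloid level was 328 to 456 CPM in WT against 489 and 1082 CPM in Arpp21-/- libraries, with Camp, Elane and Hp at 0 in all 5. Of 10 natural killer and innate lymphoid genes 1 was above WT (10%), Nkg7 with a nearest ratio of 1.00. Of 11 γδ T cell genes 1 was above (9.09%), Blk with 1.13, beside 5.17% of all genes. Of 6 genes of double-positive thymocytes 1 was below (16.7%, beside 5.38% of all genes), Trac. B cell and dendritic or stromal lists had none. Summed natural killer and innate lymphoid genes had 506 to 569 CPM in WT, 557 CPM in replicate 1 and 1739 CPM in replicate 2. Summed γδ T cell genes had 3059 to 3299 CPM in WT against 3505 and 7382 CPM in Arpp21-/- libraries, B cell genes 328 to 365 against 325 and 281 CPM, and double-positive genes 125 to 154 against 130.4 and 45.7 CPM.

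**Figure D5:**
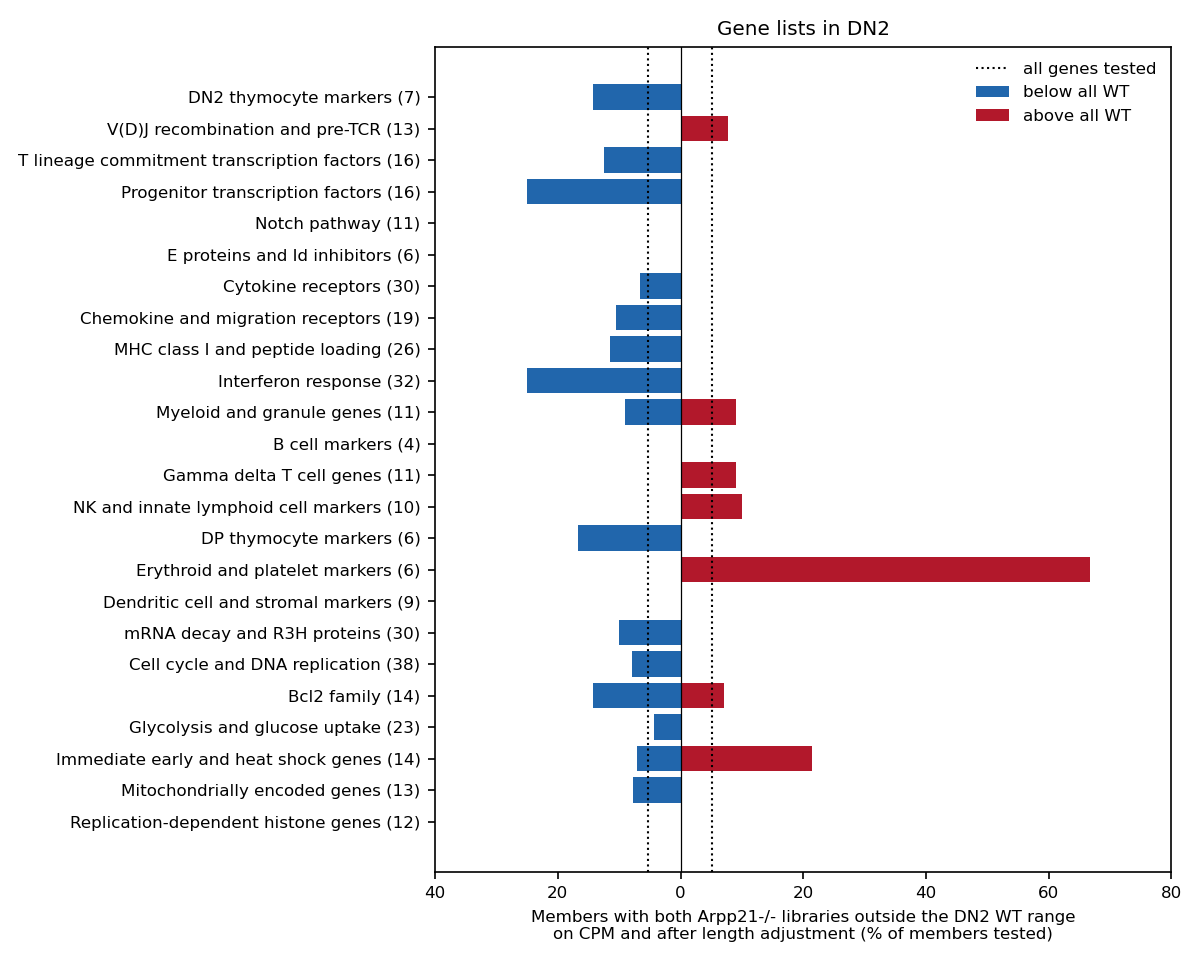
Share of the tested members of each list (number tested in brackets) for which both DN2 Arpp21-/- libraries lay below (blue, left) or above (red, right) all WT libraries on CPM and after length adjustment, in percent. Dotted lines mark the shares over all genes tested, 5.38% below and 5.17% above. Interferon response and progenitor factors reach 25% below, and erythroid markers reach 66.7% above with 6 genes tested, Alas2 included.

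The genes described in DN2 were finally read in DN3, whose values did not enter the no-overlap rule. The rule and the lists were themselves chosen with earlier results of these data known. Of the 684 genes lower on both scales in DN2, 80 were below all WT libraries in DN3 (11.7%) and 16 above (2.34%), and of the 657 higher genes 98 were above (14.9%) and 16 below (2.44%), beside 5.37% below and 5.19% above over all genes tested. Without DN3 Arpp21-/- replicate 3 the lower genes split evenly, with 86 below (12.6%) and 95 above (13.9%), beside 10.9% and 12.1% of all genes tested, while of the higher genes 113 were above (17.2%) and 75 below (11.4%). For the lower genes, therefore, the shared direction rested on 1 DN3 library. Of the 15 genes with the widest lower gap 4 were lower in DN3 with all libraries and without replicate 3, namely H2-Q6, Ap3m2, Rsad2 and H2-Q4. Of the 15 higher genes Tspan32 and Usp46 were higher in DN3. Of genes tested in both stages 2.95% had an unadjusted p under 0.05 in DN3, and no gene passed an adjusted p of 0.05 there by edgeR (398 of 12394 at an unadjusted p under 0.05, 49 called by DESeq2). H2-Q6 had 41.7, 23.7 and 31.2 CPM in DN3 WT against 5.88, 4.63 and 4.28 CPM in DN3 Arpp21-/- libraries, or -2.70 ± 0.30 (SE) on the log2 scale, with an adjusted p of 0.486 in edgeR and 5.3e-12 in DESeq2. Its neighbour H2-Q7, which overlapped in DN2, had 139.6, 108.6 and 129 CPM in DN3 WT against 41.3, 36.9 and 53.9 CPM in DN3 Arpp21-/- libraries (adjusted p of 0.552 in edgeR and 1.1e-05 in DESeq2). Ap3m2 had 18.1, 11.6 and 12.2 CPM in DN3 WT against 5.34, 4.46 and 6.54 CPM in DN3 Arpp21-/- libraries.

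Trib2 behaved otherwise. In DN3 it had 40.3, 31.9 and 31.8 CPM in WT against 38.5, 42.0 and 48.3 CPM in Arpp21-/- libraries, which overlapped, so the WT level was higher than in DN2 and the genotypes lay close. The difference between stages was tested as an interaction in 1 fit of all 11 libraries, and no gene passed by edgeR's quasi-likelihood test (373 of 13780 genes at an unadjusted p under 0.05), while DESeq2 called 10. For Trib2 the DN3 effect less the DN2 effect came to -2.07 ± 0.40 (SE) on the log2 scale. This value is a description, since it contains the DN2 values for which Trib2 was chosen.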

How the data were processed

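Per the labels and the study's methods, paired reads of 150 bases were trimmed and pseudo-aligned by the authors to Ensembl transcripts of GRCm38 with kallisto 0.46. The deposited estimated counts are expected counts per transcript, not normalized. The deposited TPM are those counts divided by effective length and scaled per library by the authors. Transcripts were matched to GENCODE M21 (116728 of 119414, at least 98.9% of counts), summed per gene and rounded. Genes were kept by filterByExpr (minimum count 10, total 15) and compared in R 4.3.3 by edgeR 4.0.16 (TMM, glmQLFit, glmQLFTest, two-sided, Benjamini-Hochberg, calls at an adjusted p under 0.05). Differences are Arpp21-/- less WT, and each standard error was taken as the size of the log2 difference over the root of F. The length trend was a lowess curve (span 0.2). The scripts were tested on simulated counts. DESeq2 1.42.0, other scalings, filters and length offsets, and each library left out were tried. Tables and plots used Python 3.11.15 and matplotlib 3.10.9.

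Named genes were the 15 widest gaps in each direction (T cell receptor and immunoglobulin segments and Gm or Rik models left out), list genes without overlap on both scales, and Arpp21. The comparison, the 26 lists (432 genes, 368 tested) and the rules were chosen with earlier results of these data known. Genes named beyond that rule, among them those that overlapped, were chosen after their values were seen. Some genes that the rules name are not reported here.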

Additional observations from a re-analysis of the deposited data

Results flagged for a closer look

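For 3 genes every Arpp21-/- library moved one way in DN2 and the opposite way in DN3. The DN3 effect less the DN2 effect, on the log2 scale, was -1.10 ± 0.40 (SE) for Blk, a Src family kinase, -6.20 ± 1.35 (SE) for Fos and 1.00 ± 0.37 (SE) for Itgb2. Each had an adjusted p of 0.964 in edgeR's test of the interaction, and DESeq2 gave 0.698, 0.0202 and 0.514. Fos rests on few counts, with at most 1.79 CPM in any DN2 and 0.671 CPM in any DN3 library. For 2 further named genes DESeq2 called the interaction, and edgeR did not (adjusted p of 0.964 for both). The difference was 2.63 ± 0.64 (SE) for Kmo (adjusted p of 0.0393 in DESeq2), which overlapped in DN3 with 3.63 to 8.32 CPM in WT against 7.50 to 13.1 CPM in Arpp21-/- libraries, and -2.07 for Trib2 (adjusted p of 0.00215 in DESeq2). All 5 genes were named for their separation in DN2, and each difference contains those DN2 values, so these p values are not independent of the choice.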

How the results depend on the processing

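The count of genes called in DN2 was 0 with edgeR, with DESeq2, with DESeq2 size factors, with both other filters, with both length offsets, with all 11 libraries and at an adjusted p under 0.1, and 0 to 6317 with each library left out. At an unadjusted p under 0.05 it was 287. In DN3 edgeR called 0 genes, DESeq2 49, the fit of all 11 libraries 1 and the fits without one library 0 to 11. The interaction gave 0 genes with edgeR and 10 with DESeq2. Genes below WT without overlap numbered 1073, 1396 in TPM, 669 with at least 10 CPM in at least 2 libraries and 1636 to 5467 with a library left out. Genes above WT numbered 946, 460 in TPM and 1505 to 5120 with a library left out, and those outside WT after length adjustment 2283 and 3498 to 10304. Fewer libraries to lie beyond make such counts larger by construction. The 74 named genes kept their direction in every alternative fit that tested them. Genes chosen because both Arpp21-/- libraries lay on one side of WT keep it largely by construction, so this is no support. Arpp21 transcripts with the exon kept their direction, with differences of -105.4 to -72.8 CPM. With the replicate block 0 genes were called in DN2 (355 at an unadjusted p under 0.05) and 0 in DN3. The labels do not say that equal numbers share a mouse or day. After each group was centred on its mean, r was 0.227 and 0.236 for equal numbers and -0.236 and -0.227 for unequal numbers. With 2 Arpp21-/- libraries, centring makes one the mirror of the other, so these values cannot show whether pairs are shared. With 2 Arpp21-/- libraries that differ this much, a gene that was not called can differ by several-fold.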
